A study of Mus musculus with 8 samples.

Results

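The normal DNA methylation landscape of the postnatal day 6 mouse testis fraction labelled type A spermatogonia was described from the 4 control samples of the series, out of 8 samples in all. The members were the control columns of the deposited count table and the cytosines on chromosomes 1 to 19, which numbered 2087852 of the 2131605 cytosines in the table. The control pools came from F1 males of C3H/HeN dams that drank tap water throughout gestation, and neither genetic change nor treatment is stated for them. Each control pool held 8 testes of 4 mice, and cells were taken with antibodies to CD49f (Itga6), an integrin carried by spermatogonia and by other cells that sit on a basement membrane. The other 4 samples, from dams given sodium arsenite, were not used. The 4 pools are separate animals, so their spread holds biological and technical variation together.

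Reduced representation bisulfite sequencing (RRBS) cuts DNA with MspI, which recognises CCGG, and then converts unmethylated cytosines so that they read as T. The level of a cytosine is the percentage of its reads that still show C. In mammals, cytosines followed by G (CpGs) are methylated over most of the genome, while CpG-dense stretches at gene starts, called CpG islands, usually stay free of the mark. Male germ cells erase their methylation in the fetus and rewrite it from late fetal to early postnatal stages, and they leave maternally methylated imprints unmethylated. DNA from many cells and from both alleles is read together, so that fewer methylated cells and less methylation per cell cannot be told apart.

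All 4 pools were deep. Coverage summed over autosomal cytosines was 94994994 to 119550662 per pool. A read is counted there at each cytosine it covers, so these sums are not numbers of reads. The median coverage of a cytosine was 33 to 41 reads. Every cytosine had at least 10 reads in every pool because the authors kept only cytosines with that coverage in all 8 samples. The arsenic samples therefore shared in the choice of cytosines. The cytosines belonged to 1515826 CpG sites, which are 7.44% of the 20383623 autosomal CpGs of the reference. Coverage was richest in CpG islands, where 25.8% of reference CpGs were read, and poorest in intergenic sequence, where 5.33% were read, so an average over these cytosines is not an average over the genome.

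Promoter stretches show what the levels mean on the DNA itself. The sequences below are the 250 bases upstream of a start, taken from RefSeq for GRCm38.p6 and written 5′ to 3′ on the gene's strand, with every CpG that was measured in capitals. They were chosen from the promoters named further on because they hold an unmethylated, an intermediate or a methylated start, or one that differed between pools. Map7 (chr10:20148670-20148919, plus strand) encodes a microtubule-associated protein, and its 35 measured CpGs here lay between 0% and 10.4% (mean over pools). Gdnf (chr15:7813477-7813726, plus strand), the Sertoli cell factor that maintains spermatogonial stem cells, had 11 measured CpGs between 0% and 1.44%. Plagl1 (chr10:13090582-13090831, plus strand), a maternally imprinted zinc finger gene, had 14 measured CpGs between 55.7% and 70.2%. Slc25a31 (chr3:40708621-40708870, plus strand), the germ-line ADP/ATP carrier, had all 18 of its CpGs measured, between 63.1% and 94.9%, and was picked after its values were seen because its window was covered whole. H2ac1 (chr13:23934187-23934436, plus strand), a testis histone H2A gene, had 5 measured CpGs between 79.0% and 95.8%. Sgo2b (chr8:63952171-63952420, minus strand), a shugoshin gene, had 4 measured CpGs between 51.2% and 61.1%.
Map7: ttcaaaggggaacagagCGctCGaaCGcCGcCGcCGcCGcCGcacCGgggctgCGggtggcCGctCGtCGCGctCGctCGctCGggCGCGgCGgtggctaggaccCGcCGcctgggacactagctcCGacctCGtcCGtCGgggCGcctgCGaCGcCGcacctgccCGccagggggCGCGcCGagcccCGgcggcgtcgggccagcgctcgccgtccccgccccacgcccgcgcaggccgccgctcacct
Gdnf: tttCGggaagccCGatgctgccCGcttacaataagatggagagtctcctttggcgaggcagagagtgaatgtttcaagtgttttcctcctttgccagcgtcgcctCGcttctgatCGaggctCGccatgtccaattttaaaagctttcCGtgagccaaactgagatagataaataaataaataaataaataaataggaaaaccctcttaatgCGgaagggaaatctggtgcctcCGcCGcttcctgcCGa
Plagl1: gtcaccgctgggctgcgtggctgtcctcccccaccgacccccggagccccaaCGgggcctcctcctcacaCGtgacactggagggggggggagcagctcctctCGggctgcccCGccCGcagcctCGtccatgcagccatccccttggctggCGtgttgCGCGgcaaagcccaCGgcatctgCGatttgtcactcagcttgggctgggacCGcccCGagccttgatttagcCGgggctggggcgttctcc
Slc25a31: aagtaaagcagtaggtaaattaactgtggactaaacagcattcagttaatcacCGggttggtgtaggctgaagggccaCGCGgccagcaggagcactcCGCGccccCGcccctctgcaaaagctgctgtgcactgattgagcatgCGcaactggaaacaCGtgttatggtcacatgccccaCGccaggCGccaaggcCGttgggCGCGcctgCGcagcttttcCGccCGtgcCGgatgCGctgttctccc
H2ac1: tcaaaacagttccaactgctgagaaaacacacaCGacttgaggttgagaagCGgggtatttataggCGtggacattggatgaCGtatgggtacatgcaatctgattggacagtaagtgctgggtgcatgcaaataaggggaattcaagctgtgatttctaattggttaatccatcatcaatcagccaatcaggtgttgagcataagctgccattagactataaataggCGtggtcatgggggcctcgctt
Sgo2b: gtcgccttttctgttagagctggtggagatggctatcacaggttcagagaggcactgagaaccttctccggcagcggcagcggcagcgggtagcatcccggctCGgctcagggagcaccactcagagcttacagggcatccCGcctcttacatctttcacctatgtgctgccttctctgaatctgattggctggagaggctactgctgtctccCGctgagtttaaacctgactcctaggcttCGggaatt

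The levels fell into an unmethylated and a methylated class in every control pool. The mean level of all autosomal cytosines was 53.8% in pool 1, 53.9% in pool 2, 54.0% in pool 3 and 53.8% in pool 4, which is 53.9% ± 0.0780 (SD, n = 4). The median cytosine lay higher, at 70.7% ± 0.252. Cytosines under 10% made up 29.3% ± 0.154 and cytosines at 90% or more made up 26.3% ± 0.429. Exactly 0% was read at 22.5% ± 0.533 of cytosines, and exactly 100% at 7.50% ± 0.813. At the median coverage a count of 0 allows a level of up to 7.32% in pool 1 and 9.09% in pool 4 (3 reads of the total), so a cytosine at 0% is low but not shown to be free of methylation. The range from 20% to under 80% held 24.7% ± 0.369. The histogram in bins of 5 points peaked at both ends, with 25.8% of cytosines in the lowest bin and 14.9% in the highest, and was lowest from 35% to 40%, where 1.11% of cytosines lay. The SD between pools was at most 0.485 points in any bin.

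**Figure D1:**
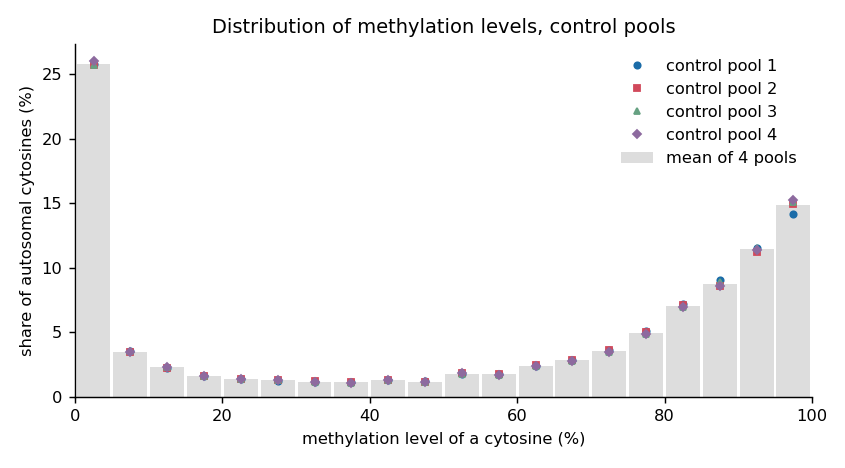
Share of autosomal cytosines (y axis, %) in each 5-point bin of methylation level (x axis, %) in the 4 control pools (points) and their mean (bars). The lowest bin holds 25.8% and the highest 14.9%, and the points of the pools nearly coincide.

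The low class was shared between pools more often than the high class. A level under 10% was found in at least 1 pool at 693101 cytosines and in all 4 at 503654 (24.1% of all cytosines). A level of at least 90% was found in at least 1 pool at 855345 cytosines and in all 4 at 236013 (11.3%). The classes lie unlike distances from their limits. A mean under 1% was found at 324752 cytosines, and a mean from 90% to 95% at 293192, where read counting alone gives an SD of 4.45 points. The part of counting in the sharing was not tested. A cytosine under 10% in one pool and at 90% or more in another occurred 46 times. Of the cytosines with a mean under 10%, 76.6% lay in CpG islands, which hold 25.9% of all measured cytosines, and 75.6% within 2 kb of a coding start. Of those with a mean of 90% or more, 4.26% lay in islands and 86.5% lay more than 4 kb from any island, where 63.3% of all measured cytosines lie. The 497596 cytosines with a mean from 20% to under 80% lay in intergenic sequence for 44.5%, in introns for 38.9% and in promoters for 3.46%. Of all measured cytosines, these classes hold 34.6%, 35.3% and 13.2%.

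Gene features differed in level, lowest at 5′ UTRs and promoters and, over all measured cytosines, highest between genes. Promoters, here the sequence from 1 kb upstream to 100 b downstream of a start, had levels of 7.98%, 8.05%, 8.23% and 8.05% in pools 1 to 4, a mean of 8.08% ± 0.107 (SD, n = 4) over 276174 cytosines. The 5′ UTRs were lower still, at 6.15% ± 0.148. Coding exons averaged 54.2% ± 0.211, noncoding exons 38.7% ± 0.168, introns 59.3% ± 0.113, 3′ UTRs 65.3% ± 0.109, and the sequence around transcript ends 53.4% ± 0.0713. Intergenic sequence averaged 68.4% ± 0.119, with 68.3%, 68.3%, 68.6% and 68.4% in pools 1 to 4. The SD between pools was at most 0.211 points for any of these 8 classes, and no pool of one class overlapped a pool of another. The order was another one more than 4 kb from any island. There, coding exons were at 79.3% ± 0.154, 3′ UTRs at 76.0% ± 0.168 and introns at 73.5% ± 0.160. Transcript ends were at 73.1% ± 0.0876 and intergenic sequence at 72.5% ± 0.117, with promoters at 41.3% ± 0.177 and 5′ UTRs at 33.7% ± 0.256. Over all measured cytosines, intergenic cytosines exceeded promoter cytosines by 60.3 ± 0.0274 points, in 4 of 4 pools. An exact two-sided sign-flip test over the 4 pools gave p = 0.125, the smallest it allows, for each of the 8 differences computed in this family, and p = 0.125 after Benjamini-Hochberg adjustment. With 4 pools this test cannot reach 0.05, so the differences below are given with their spread.

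The first exon and intron stood apart from the rest of the gene. First exons averaged 5.26% ± 0.113 and internal exons 68.6% ± 0.155, a difference of 63.3 ± 0.0846 points in 4 of 4 pools. First introns averaged 40.2% ± 0.0843 and later introns 72.8% ± 0.149, a difference of 32.6 ± 0.0882 points. Outside islands, first introns rose to 60.7% ± 0.140 and first exons to 28.7% ± 0.254, still under later introns at 74.8% ± 0.165 and internal exons at 77.9% ± 0.103. Beyond the shelves, where no island is within 4 kb, internal exons (80.4%) exceeded later introns (75.7%) by 4.69 ± 0.231 points in 4 of 4 pools. There, introns and coding exons together exceeded intergenic sequence by 1.94 ± 0.192 points.

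**Figure D2:**
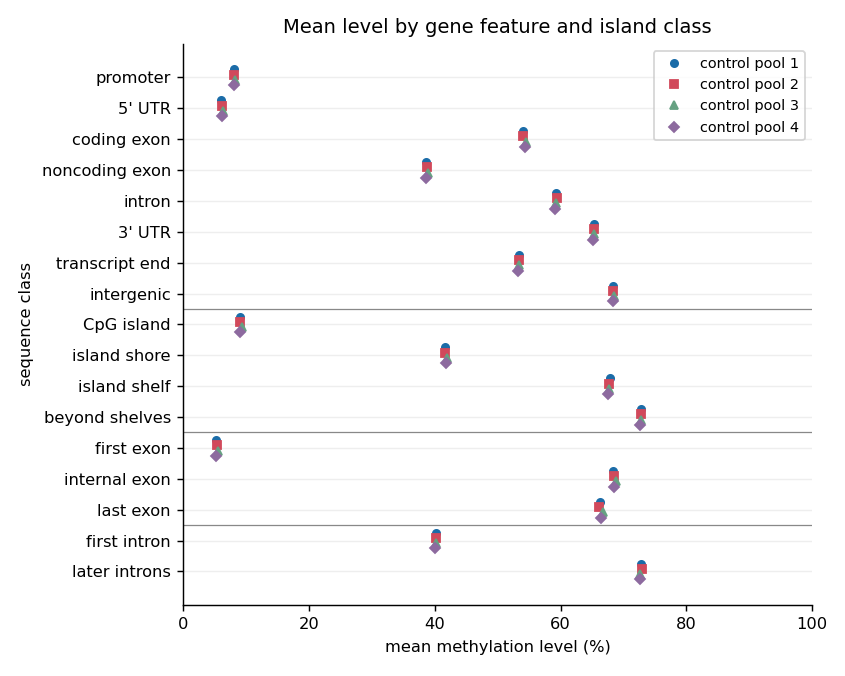
Mean methylation level (x axis, %) of each class of sequence (y axis) in the 4 control pools, one symbol per pool, with gene features, island classes, exon order and intron order from top to bottom. Promoters, 5′ UTRs, islands and first exons lie under 10%, later introns and sequence beyond the shelves above 70%, and the symbols of the pools overlap within each class.

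Along genes of at least 10 kb, the level climbed with distance from the start. In the last kb upstream it was 6.01% ± 0.0901, and over 10 equal segments of the gene it went from 15.3% ± 0.0979 in segment 1 to 64.5% ± 0.0684 in segment 2 and 72.8% ± 0.116 in segment 10. Over cytosines beyond the shelves alone, segment 1 was at 59.3% ± 0.0610 and segment 10 at 77.1% ± 0.111. In the first kb past the transcript end the level was 48.6% ± 0.102, and 68.9% ± 0.217 beyond the shelves. These profiles cover 12707 genes.

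Starts that lie in an island and starts that do not had different troughs. Over all coding starts the lowest 100 b bin was the one just upstream, at 4.13% ± 0.0771. At island starts the bins just downstream (2.10% ± 0.0880) and just upstream (2.12% ± 0.0671) were lowest, and their gap was within the SD. At starts outside islands the lowest bin was just upstream, at 20.7% ± 0.164. From 1 kb upstream to the start, island starts averaged 4.91% ± 0.0940 and other starts 32.1% ± 0.190. The trough at island starts reached further into the gene than away from it: from 1 kb to 2 kb the level was 33.7% ± 0.101 upstream and 23.5% ± 0.131 downstream, a difference of 10.2 ± 0.0531 points in 4 of 4 pools. At starts outside islands the same stretches were at 58.4% ± 0.161 and 48.2% ± 0.162. Over 100 kb from any coding start the level was 74.1% ± 0.137.

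**Figure D3:**
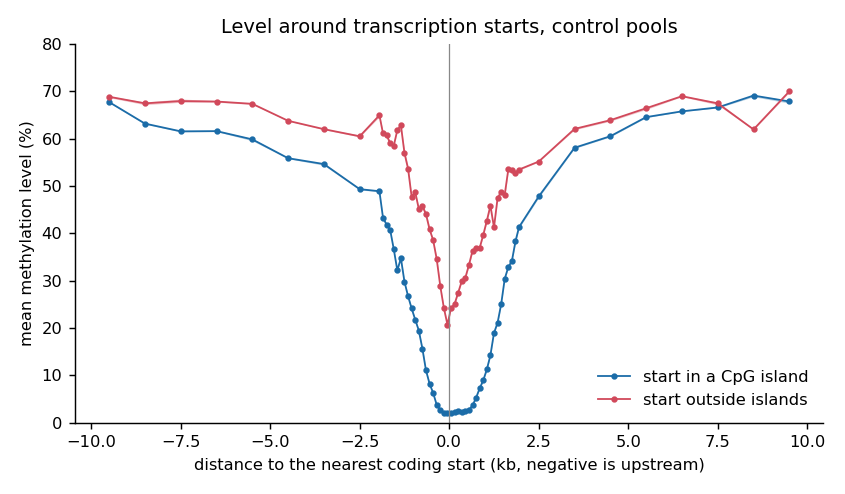
Mean methylation level (y axis, %) against distance to the nearest coding start (x axis, kb) in bins of 100 b within 2 kb and of 1 kb beyond, for starts in CpG islands and outside them. Lines and points are means of 4 control pools and the band, mostly hidden by the line, is their range; the minimum is 2.10% at island starts and 20.7% at the others.

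CpG density and level ran in opposite directions. Where 1 to 5 CpGs lay within the 500 b around a cytosine the mean level was 76.1% ± 0.119, at 16 to 20 CpGs it was 57.0% ± 0.258, at 26 to 30 it was 25.1% ± 0.2202, and above 60 it was 1.98% ± 0.0966. At equal density, cytosines near a start were lower than those far from one. At 21 to 25 CpGs, cytosines within 2 kb of a start averaged 7.63% ± 0.168 and those farther away 62.5% ± 0.374. At 31 to 40 CpGs the values were 2.57% ± 0.105 and 31.5% ± 0.341. Islands themselves averaged 9.07% ± 0.132, shores (up to 2 kb away) 41.7% ± 0.169, shelves (2 kb to 4 kb) 67.7% ± 0.136 and sequence beyond 72.8% ± 0.0649.

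Islands away from starts were often methylated. Of 10313 islands within 1 kb of a coding start and with at least 5 cytosines measured, 96.8% had a mean under 10% and 43 had 80% or more. Of 2198 islands inside genes but away from starts, 48.1% were under 10% and 32.1% were at 80% or more. Of 2035 islands between genes, 46.8% were under 10% and 40.7% were at 80% or more. Intermediate islands, from 20% to under 80%, numbered 167, 341 and 205 in these classes.

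Soft-masked sequence, which holds transposons and other repeats, was more methylated than the rest. It averaged 78.2%, 78.2%, 78.6% and 78.4% in pools 1 to 4, against 48.7% ± 0.0746 for the rest. Beyond the shelves the gap narrowed to 12.4 ± 0.218 points (82.4% against 70.0%), in 4 of 4 pools. Chromosome means ran from 48.3% ± 0.0777 on chromosome 11 to 56.7% ± 0.129 on chromosome 10. Beyond the shelves the range was smaller, from 70.3% on chromosome 11 to 74.7% on chromosome 16.

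Neighbouring cytosines had similar levels. On the same strand, cytosines 1 to 10 b apart had a Pearson correlation of 0.953 (range over pools 0.952 to 0.955) over 506618 pairs. The correlation was 0.774 at 51 to 100 b, 0.604 at 501 to 1000 b and 0.0435 at 5001 to 20000 b. These correlations are across sites that share a sample, a read or an island, and are given as a description. Both strands of a CpG, read separately at 571672 sites, correlated at 0.946. Isolated exceptions existed: of 332486 cytosines whose nearest measured neighbours on either side, within 100 b, were both at 80% or more, 3796 (1.14%) had a mean under 10%, and 2220 of these showed no methylated read in any pool. Whether C3H/HeN DNA carries the reference CpG at these sites was not tested.

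Most promoters of single genes were unmethylated. For a gene with several starts, the promoter is that of the start with most measured cytosines, which need not be the main start. Of 20021 coding genes, 10689 had at least 3 measured cytosines in the promoter, and the median promoter level was 1.76%. Under 10% lay 8622 promoters (80.7%), from 20% to under 80% lay 1238 (11.6%), and at 80% or more lay 358 (3.35%). Levels were not corrected for cytosines that bisulfite left unconverted, which also read as C. Differences between promoters or lists at a few percent are therefore not shown to be differences in methylation. Where the start lies in an island, 90.2% of 8608 promoters were under 10% and 0.662% were at 80% or more. Where it does not, 41.4% of 2081 were under 10% and 14.5% were at 80% or more.

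Named promoters illustrate each class. The unmethylated promoters with most measured cytosines were Fibcd1, an acetyl-group receptor, with 142 cytosines and a level of 1.02% ± 0.262, Ino80e, a subunit of a chromatin remodeller, with 119 and 1.18% ± 0.184, and Map7 with 118 and 1.18% ± 0.297. Among promoters from 40% to 60%, Commd1 (chr11:22972766-22973866), a copper metabolism gene whose intron holds imprinted Zrsr1, read 62.3%, 53.1%, 54.2% and 51.8% in pools 1 to 4. The Commd1 window lies close to that of Zrsr1 (chr11:22971005-22972105). Inpp5f (chr7:128687870-128688970), a phosphoinositide phosphatase, read 37.5%, 46.6%, 60.1% and 47.8%, and Fam181a read 47.1%, 45.6%, 53.0% and 51.6%. Its 45 cytosines ranged from 0% to 92.6%, while those of Commd1 stayed between 39.6% and 67.3%. A middle value went with a wide range of sites in Fam181a and a narrower one in Commd1. How the sites of Fam181a are distributed within that range was not tested. At 90% or more, H2ac1 read 85.3%, 90.2%, 93.9% and 91.4%. Fkbp6, a meiotic protein, was at 90.5% ± 3.97 and Igflr1, a receptor, at 90.1% ± 2.00.

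The promoters that tell germ cells from other cells did not show the levels known from male germ cells. The list holds 14 maternally imprinted genes, known for a mark that is inherited from the egg, held on 1 allele in body cells and absent from male germ cells. Each was measured at 1 start, which may not be the marked one. Of the 10 with at least 3 cytosines, 9 lay from 20% to under 80% and 1 under 10%, with a list median of 58.7% against 1.76% for all coding promoters. Of all coding promoters, 11.6% lay from 20% to under 80% and 80.7% under 10%. Over the 10, the mean was 54.8%, 52.9%, 56.9% and 53.8% in pools 1 to 4. Plagl1 read 56.8%, 72.1%, 61.4% and 74.5% in pools 1 to 4. Mest, a hydrolase gene, read 84.3%, 81.7%, 71.2% and 71.3%, the highest of the list. Snrpn, which encodes a splicing protein, read 68.0%, 53.7%, 44.9% and 57.3%. Zrsr1, a splicing factor retrogene, was at 53.4% ± 5.70, Impact, a regulator of translation, at 50.5% ± 3.28, Nnat, neuronatin, at 58.5% ± 12.2, and Mcts2, a retrogene, at 62.8% ± 6.38. Sgce (59.0% ± 14.9) and Peg10 (61.2% ± 7.91), which share a start region and some of its cytosines, made up one locus. Grb10, a growth-factor adaptor gene with several starts, read 1.23% ± 0.451 at the start measured (chr11:12037320-12038420). Whether that start carries the imprint was not tested. Peg3, Kcnq1ot1, Airn and Nap1l5 had too few cytosines measured.

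Germ-line genes gave the same picture. The list holds 16 genes whose promoters are known as methylated in body cells and open in germ cells, and 13 were measured, all with a start in an island except Tex101, a germ cell surface protein gene. Of these 10 were at 80% or more, 3 from 20% to under 80% and 0 under 10%, with a list median of 85.9%. Of all coding promoters, 3.35% were at 80% or more, 11.6% from 20% to under 80% and 80.7% under 10%. Where the start lies in an island, 0.662% were at 80% or more. Dazl, an RNA-binding protein that germ cells need, read 95.2%, 95.8%, 96.5% and 99.1% over 12 cytosines with at least 111 reads each. Ddx4, the germ cell helicase also called Vasa and singled out after its values were seen, read 81.1%, 87.9%, 77.8% and 84.6%. Rpl10l, a ribosomal protein retrogene, was at 90.6% ± 3.78, and Stk31, a testis kinase, at 89.8% ± 3.72. The lowest were Tdrd1, a tudor protein of the piRNA pathway, at 58.5% ± 6.07, Brdt, a testis bromodomain protein, at 78.5% ± 4.02, and Mael, maelstrom, at 79.2% ± 3.33. The imprinting region of H19, 2 kb to 4 kb before its start (chr7:142580146-142582146), which male germ cells methylate on both alleles, read 72.3%, 81.2%, 69.9% and 58.5% over 4 cytosines. These promoter levels go against the label, so the samples are called the control pools here. They are levels of DNA methylation alone, expression was not analysed here, and the share of germ cells in the pools was not tested.

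**Figure D4:**
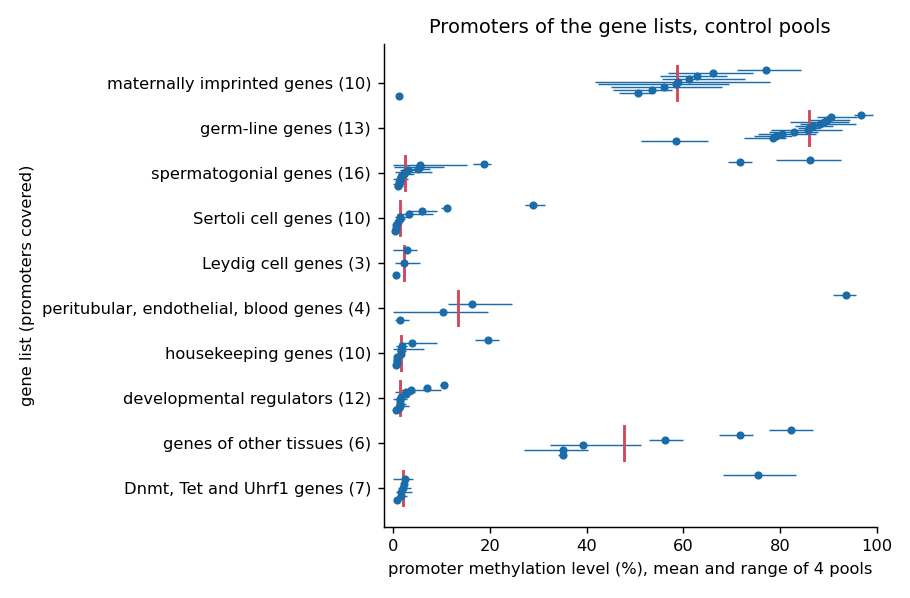
Promoter methylation level (x axis, %) of each measured gene in 10 gene lists (y axis, with the number measured); points are means of 4 control pools, bars their range and red lines list medians. Maternally imprinted genes (median 58.7%) and germ-line genes (85.9%) lie far above the spermatogonial (2.31%), Sertoli (1.34%) and housekeeping (1.52%) lists.

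Spermatogonial and Sertoli cell markers were under 10% about as often as coding promoters at large, of which 80.7% were, with a median of 1.76%. Among 22 spermatogonial genes 16 were measured, 13 under 10% and 1 at 80% or more, with a median of 2.31%. Uchl1, a ubiquitin hydrolase, was at 1.01% ± 0.698, Ret, the receptor for Gdnf, at 1.12% ± 1.32, and Zbtb16, also called PLZF, at 1.13% ± 0.6003. Gfra1, the Gdnf co-receptor and a marker of type A spermatogonia, named after its values were seen, read 4.22%, 2.20%, 1.06% and 1.45%. Stra8, which germ cells need to enter meiosis, read 85.9%, 79.2%, 87.3% and 92.6%. Pou5f1, the pluripotency factor Oct4, was at 71.6% ± 2.34 and Cdh1, E-cadherin, at 18.8% ± 1.66. Itga6, the antigen used for the isolation, had too few cytosines measured, as had Nanos2, Nanos3, Lin28a, Dmrt1 and Sohlh1.

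Genes of the supporting cells were read in the same way. Of 13 Sertoli cell genes 10 were measured, 8 under 10%, with a median of 1.34%. Kitl, the ligand of Kit, was at 0.240% ± 0.278, Gdnf at 0.539% ± 0.314, Wt1 at 0.582% ± 0.0778, Gata4 at 0.865% ± 0.545, Sox9 at 1.33% ± 0.758 and Sox8 at 1.35% ± 1.55, the last 4 of these being transcription factors of the testis. Inha, inhibin alpha, was at 3.23% ± 3.44 and Cldn11, a tight junction protein, at 5.90% ± 2.54. Dhh, the ligand desert hedgehog, read 9.93%, 11.2%, 11.6% and 11.6%, and Fshr, the follicle-stimulating hormone receptor, read 27.98%, 28.9%, 31.4% and 27.2%. Of 9 Leydig cell genes 3 were measured: Pdgfra at 0.641% ± 0.567, the steroid factor Nr5a1 at 2.13% ± 2.41 and the steroid enzyme Cyp11a1 at 2.83% ± 2.23. Among 12 peritubular, endothelial and blood genes 4 were measured, with Myh11, smooth muscle myosin, at 1.45% ± 1.29, Tagln at 10.4% ± 8.40, desmin (Des) at 16.3% ± 6.29 and the endothelial Pecam1 at 93.7% ± 2.13. An unmethylated promoter does not show that its gene is expressed, so these lists do not tell which cells were present.

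Housekeeping genes and developmental regulators were low, as were most coding promoters with a start in an island, and genes of other tissues were not. Of 16 housekeeping genes 10 were measured, with a median of 1.52% and 9 under 10%, beside the 80.7% of all coding promoters under 10%. All 10 starts lie in islands, where 90.2% of coding promoters were under 10%. Ppia, Sdha, Eef1a1, B2m, Polr2a, Gapdh, Tbp and Rpl13a lay between 0.761% and 3.93%. Actb, beta-actin, was at 19.5% ± 2.39, and its 13 cytosines ranged from 0% to 70.1%. Of 20 developmental regulators 12 were measured, most with a start in an island, and 11 of them were under 10%, with a median of 1.45%. Lhx2, Otx2 and Tbx3 were lowest, at 0.593% ± 0.411, 1.19% ± 0.400 and 1.31% ± 1.29, and Sox2, Foxa2 and Hoxa9 highest, at 3.67% ± 4.13, 6.90% ± 0.632 and 10.4% ± 0.525. Genes of differentiated tissues, 6 of 18 measured and none with a start in an island, had a median of 47.7% and no promoter under 10%. Among all coding promoters with a start outside islands, 41.4% were under 10% and the median was 22.2%. Keratin Krt5 was at 35.1% ± 0.735, the muscle genes Ckm and Acta1 at 35.2% ± 5.71 and 39.3% ± 8.24, the lens crystallin Cryaa at 56.2% ± 3.07 and the calcium-binding protein Pvalb at 71.8% ± 3.13.

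Among the genes that write and remove the mark, 6 of 7 measured promoters were under 10%, beside 80.7% of all coding promoters. Uhrf1 and Dnmt1, which copy methylation after replication, were at 0.725% ± 0.425 and 1.497% ± 1.04. Dnmt3a, which writes new methylation, was at 2.20% ± 0.504, and Tet1, Tet2 and Tet3, which oxidise it, were at 1.63% ± 1.53, 1.99% ± 1.19 and 2.36% ± 1.76. Dnmt3l, the germ-line cofactor of Dnmt3a, read 68.1%, 72.0%, 78.2% and 83.2% over 20 cytosines. Dnmt3b had too few cytosines measured.

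At single cytosines the pools, which are separate animals, spread more than independent reads would by counting alone. PCR copies cannot be told apart from other reads here, and their part in the spread was not tested. The median SD of a cytosine over the pools was 4.88 points. In the class with a mean from 40% to under 60% the root mean square SD was 12.2 points, where counting alone gives 8.74, a variance 1.97 times as large. Under 1% the SD was 0.567 against 0.571 from counting. The range between pools was under 10 points at 47.0% of cytosines and 40 points or more at 2.39%. Any pair of pools correlated at 0.962 to 0.966 across cytosines, which are not independent, and differed by 6.80 to 7.18 points on average. Averaging reduced the spread: in 140944 windows of 1 kb with at least 5 cytosines the median SD was 2.46 points, and 2182 windows (1.55%) had a range of 20 points or more.

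**Figure D5:**
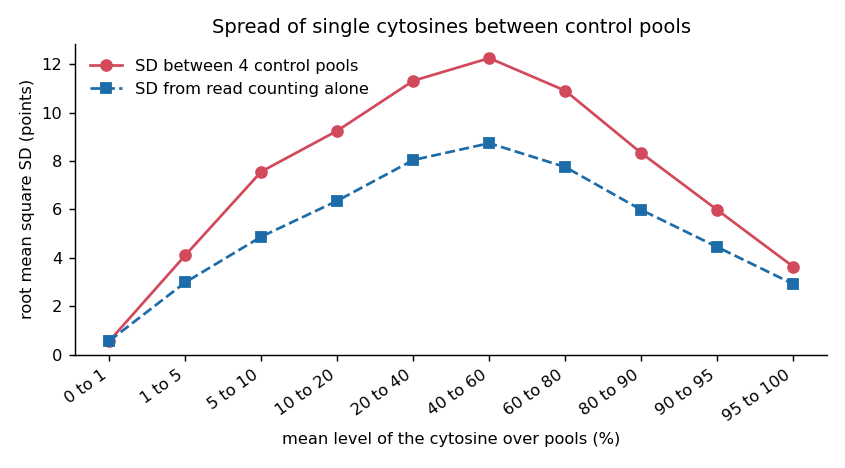
Root mean square SD between the 4 control pools (y axis, percentage points; solid line) and the SD that read counting alone gives (dashed line), by mean level of the cytosine (x axis, %). The lines meet under 1% and are widest apart from 40% to 60%, at 12.2 and 8.74 points.

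A Pearson chi-square test asked at each cytosine whether the 4 pools had one level. It could be run at 645136 cytosines with an expected count of at least 5 in every cell, which leaves out most cytosines near 0% and 100%. The test covers counting error only and takes each read as an independent molecule, so its calls compare these 4 libraries. At a Benjamini-Hochberg adjusted p of at most 0.05, 97601 differed between pools, 15.1% of those tested, and their median range was 25.8 points. By place, 21.2% of tested island cytosines, 19.5% of coding exon cytosines, 14.8% of intergenic and 14.6% of intron cytosines were called. With the tested cytosines split by summed coverage into 5 groups of about equal size, the share called ran from 10.04% in the shallowest group to 22.5% in the deepest, and the part of coverage in the differences by place was not tested. Each pool was the one farthest from the median of the pools at 23.2% to 26.2% of the called cytosines. Counting alone does not describe the pools: the median statistic was 2.15 times that of a single level, and after division by it 285 cytosines were called. Without pool 1, 2 or 3 the count was 64783, 64094 or 61471, from fewer samples.

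The 3 promoters with at least 5 cytosines and the largest SD between pools, chosen by that SD and so given without a test, were Sgo2b, Esyt3 and Rbmxl2. Sgo2b read 27.0%, 74.4%, 52.3% and 55.0% in pools 1 to 4 over 10 cytosines. Esyt3, an extended synaptotagmin, read 20.004%, 24.0%, 57.1% and 20.3% over 11 cytosines. Rbmxl2, a testis RNA-binding retrogene, read 50%, 13.7%, 50.3% and 32.2% over 9 cytosines with 10 to 14 reads each. For comparison, the median promoter SD was 1.03 points and the 95th percentile 5.53 points.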

How the data were processed

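The authors digested DNA with MspI, sequenced it after bisulfite conversion (RRBS), trimmed the reads, mapped them to mm10 and joined the 8 samples with each strand kept apart. The submitters' processing notes name Trim Galore 0.6.5, Bismark 0.22.3 and methylKit 1.22.0. The deposited table gives, as counts by the authors, the reads covering each cytosine, those with C and those with T, without normalization. Coverage equalled their sum at every control cytosine (0 exceptions), and the lowest was 10, which sets the precision: a single cytosine at a middle level is uncertain by several points, and limits from counts of 0 cover counting error only, since PCR copies carry no molecular identifiers.

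Only the 4 control columns and chromosomes 1 to 19 were used, with groups taken from the sample labels. The level of a cytosine is C reads over coverage. The reference was GRCm38.p6, the assembly that mm10 also represents. Every cytosine fell on a reference C of its strand, and all but 354 fell in a CpG. Features came from 43783 curated RefSeq transcripts in the order promoter, transcript end, coding exon, 5′ UTR, 3′ UTR, noncoding exon, intron, intergenic. CpG islands (20461) were called on the reference from windows of 500 b with GC of at least 55% and observed over expected CpG of at least 0.65. Pools were compared at each cytosine with a Pearson chi-square test and Benjamini-Hochberg adjustment, tested on simulated data. Apart from sites with a shifted pool, the simulated counts held counting error alone, without the wider spread of the real pools. Features were compared within pools with exact sign-flip tests. Tests used scipy 1.17.1 and numpy 2.4.6, tables pandas 2.3.3 and plots matplotlib 3.10.9, all under Python 3.11.15.

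Members and gene lists were chosen with earlier results of these data known. Named promoters are all measured members of a list of up to 10, otherwise its 3 lowest and 3 highest, plus the 3 with most cytosines under 10%, at 40% to 60% and at 90% or more, and the 3 with at least 5 cytosines and the largest SD. Values of some list members are not reported here. Alternatives were other coverage minima, deep cytosines left out, strands summed, coverage weighting, other promoter and gene models, other test settings and each pool left out. Sequences are RefSeq's for GRCm38.p6, which is C57BL/6J and not C3H/HeN. Arsenic samples and sperm were not used here.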

Additional observations from a re-analysis of the deposited data

Results flagged for a closer look

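Values of the 4 control pools were looked at in 140 groups for a pool set far apart from the other 3. This was so in 12, where the limit used is passed by chance in about 1 of 20 independent groups. The groups overlap, since lists and their own genes were both looked at. They also hold the 3 promoters chosen for the largest SD, of which Esyt3 is among the 12. For both reasons the count was not tested against that rate. Pool 3 was the one apart in 6 of the 12 groups, pools 1, 2 and 4 in 2 each. Over all reads, the level was 59.0% in pool 3 and 57.7% to 57.8% in the others. Among promoters, pool 3 stood apart at Esyt3 (57.1% against 20.004% to 24.0%), Fkbp6 (96.4% against 88.0% to 88.8%), Brdt (72.5% against 79.9% to 81.3%), Gapdh (6.32% against 0%, over 3 cytosines) and Hoxa9 (9.59% against 10.5% to 10.7%). Pool 4 stood apart at Etv5, a transcription factor of spermatogonial stem cells (7.93% against 0.262% to 0.995%), and at Sox2 (9.83% against 1.23% to 2.14%). Pool 1 stood apart at Sox8 (3.67% against 0.333% to 0.784%) and in the mean of the differentiated tissue list (52.9% against 53.4%), and pool 2 at Tbx3 (3.22% against 0.386% to 0.857%) and Krt5 (34.0% against 35.4% to 35.5%). No direction is shared over these promoters, and what sets the pools apart was not tested.

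Cytosines outside the autosomes were measured too. Mitochondrial cytosines, 165 in number, averaged 1.39% ± 0.0833 (SD, n = 4). On chromosome X 37313 cytosines averaged 66.4% ± 0.247, on chromosome Y 4899 averaged 78.4% ± 0.786, and on unplaced scaffolds 1376 averaged 71.3% ± 0.590. The 354 autosomal cytosines not followed by G in the reference averaged 28.8% ± 0.496, with 201 under 10% and 112 at 50% or more.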

How the results depend on the processing

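With coverage of at least 20 reads in every control pool the mean level was 57.9%, the share under 10% 24.8%, the share at 90% or more 28.1%, promoters 9.64% and intergenic sequence 69.7%. With at least 30 reads these were 61.1%, 21.1%, 29.5%, 11.3% and 70.6%, so the values belong to the coverage chosen. With strands summed the mean was 54.2%, the share under 10% 29.1% and intergenic sequence 69.0%. Weighted by coverage, the mean was 58.1%, promoters 10.03% and intergenic sequence 67.4%. Without the 3212 deepest cytosines, an alternative chosen after seeing the data, the weighted mean was 58.4%. Promoters were at 6.36% with 500 b on either side of the start, and with all RefSeq transcripts at 11.8%, with intergenic sequence at 70.7%. Cytosines that differed between pools numbered 56505 with a smallest expected count of 10 and 285 after scaling. Leaving out each pool in turn gave 53.8% to 53.9% for the mean, 29.2% to 29.4% under 10%, 26.2% to 26.5% at 90% or more, 8.03% to 8.11% for promoters, 68.3% to 68.4% for intergenic sequence and 61471 to 67737 differing cytosines. Of the 100 values computed under alternatives, 75 stayed within the SD between pools, within 1.5 times a count, or in the direction of a difference between features. Many of those 75 ask only for a direction or leave out a single pool, and so share most of the data. The mean level, both shares, promoters and intergenic sequence all moved beyond the SD with at least 20 or 30 reads. The levels also moved with coverage weighting, and promoters and intergenic sequence with other gene models. With at least 20 reads, 7 of 8 differences between features had one direction in every pool, and the strands did not. No paired analysis was possible because only the control group was analysed, with no other group to pair it with, and features were compared within pools throughout. Depth limits single cytosines, and promoters with 3 to 5 cytosines rest on few reads.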
